A study of Mus musculus with 8 samples.

Results

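The genes described here are 5 ligands and 4 receptors of the fibroblast growth factor (FGF) family, Fgf1, Fgf2, Fgf7, Fgf10, Fgf18, Fgfr1, Fgfr2, Fgfr3 and Fgfrl1. They were chosen by symbol, as the rows of the expression table that carry these names, and make up 9 of its 22520 genes. Each was measured by RNA sequencing in 8 libraries, 4 wild-type (WT) and 4 LRP1 knockout (LRP1 KO). The labels call every library a mixture of heart, liver and lung microvascular endothelial cells (ECs) of C57BL/6 mice at postnatal day 14. In both groups the Lrp1 gene was flanked by loxP sites (LRP1 f/f), and LRP1 KO mice also carried Cdh5-CreER, a Cre recombinase that tamoxifen switches on and that the promoter of the endothelial gene Cdh5 drives, while WT littermates had no Cre. Cells were taken up with beads against PECAM-1, a surface protein of ECs. The time of tamoxifen treatment is not given in the sources used here. Genotype and selection are as the study gives them, and its account of the sequencing sets liver ECs apart from heart and lung ECs, unlike the labels of these libraries. The labels do not tie the 4 libraries of a group to separate mice, so p-values measure the spread between these libraries.

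FGFs are secreted proteins that bind heparan sulphate on cell surfaces and in the matrix, and with it assemble FGF receptors, which are tyrosine kinases, into active pairs. The receptors pass the signal through the docking protein FRS2 to the RAS and MAP kinase cascade and through phospholipase C gamma, and the cascade induces its own inhibitors, such as the Sprouty proteins. FGF2 is a classical growth factor of ECs, while FGF7 and FGF10 are made by mesenchymal cells and act on epithelia through a splice form of FGFR2. LRP1 is a large endocytic receptor related to the LDL receptor, and the comparison asks how the genes of this pathway were expressed in cells of mice bred to lose it from the endothelium.

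Among the 9 genes only Fgfr1 passed the test, with a level in LRP1 KO at 74.9% of that in WT. None of the 5 ligands passed it (limma), also at an unadjusted p under 0.05. Around them, 2 other FGF family genes were tested, and Fgf23 was higher in LRP1 KO. Of 14 tested FGF co-receptors, binding proteins and receptor partners 7 were higher, and the glypican gene Gpc3 and Flrt2 were lower. Over all tested genes 6.27% were called higher and 7.31% lower. Without single libraries 3 to 9 of these co-receptors and partners were called. Of 18 tested targets of FGF signaling 2 were higher and 2 lower (22.2% called, beside 13.6% of all tested genes). The members and the lists were chosen with earlier results of these data known, so such shares cannot show an excess. With the mean level of endothelial or of fibroblast markers as a covariate 0 members, 0 targets and 1 co-receptor or binding protein were called. In these 2 fits 1.43% and 1.73% of all tested genes were called.

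The values are FPKM, which count fragments per transcript length and library size, and were quantile normalized before they were deposited. The sum per library ran only from 503571 to 504112, so depth is unknown and no counting error can be given. Lrp1 RNA was low in every LRP1 KO library, at 2.79 to 7.72 FPKM, against 103.2 to 140.4 FPKM in WT. The Y-linked gene Eif2s3y was near 0 in WT replicate 4 and LRP1 KO replicate 2 and at 10.1 to 35.9 FPKM in the other 6 libraries, so both groups held mice of both sexes. The libraries were not made of ECs alone. The summed level of 20 endothelial markers was 205.8 to 221.7 FPKM in WT, below that of 12 fibroblast markers (2910 to 4161 FPKM) and of 8 markers of mesothelium, the lining of heart, liver and lung (2403 to 2755 FPKM). In LRP1 KO the endothelial sum was 752.6, 462.3, 547.8 and 212.6 FPKM in replicates 1 to 4, so that LRP1 KO replicate 4 alone lay at the WT level. All 19 tested endothelial markers had a log2 fold change above 0, with a median of 0.90. Of them 2 were called higher and none lower, or 10.5%, beside 13.6% of all tested genes. Lrp1 was at 7.72 FPKM in LRP1 KO replicate 4, whose fibroblast sum was 3796 FPKM, and whether its loss was limited to ECs was not tested. The fibroblast sum was 2555 to 3796 FPKM in LRP1 KO, with 3 of 12 markers lower in the limma test and none higher. The mesothelial sum was lower in LRP1 KO without overlap, at 2054 to 2337 FPKM, with 2 of 8 markers called lower (Msln and Upk3b). The mean log2(FPKM + 1) of these 8 markers did overlap, at 6.83 to 7.16 in WT and 6.62 to 6.84 in LRP1 KO. Mural cell markers were higher in LRP1 KO (4 of 8 tested, 1040 to 1627 against 670.5 to 836.4 FPKM), as were macrophage markers (9 of 11 tested, 241.3 to 585.0 against 91.1 to 116.2 FPKM). Leukocyte markers summed to 194.4 to 231.7 FPKM in WT, against 207.2 to 267.2 FPKM in LRP1 KO, with 5 of 7 tested higher. Most of that sum was Arhgdib (182.3 to 225.0 FPKM in WT, 162.7 to 184.7 FPKM in LRP1 KO), and the mean log2(FPKM + 1) of the list, in which each gene has equal weight, did not overlap, at 1.16 to 1.46 in WT and 2.15 to 2.71 in LRP1 KO. Of 10 hepatocyte markers 8 were under 1 FPKM in all libraries, as were 6 of 12 lung epithelial and 3 of 10 cardiomyocyte markers. Single genes of these lists were high, such as Trf at 816.2 to 963.6 FPKM in WT and 313.2 to 597.1 FPKM in LRP1 KO (called lower), Tnnt2 at 81.6 to 151.9 FPKM over all libraries, and Krt8 and Krt18 at 40.6 to 85.6 FPKM. In such mixtures fewer cells of a type and less RNA per cell cannot be told apart.

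**Figure D1:**
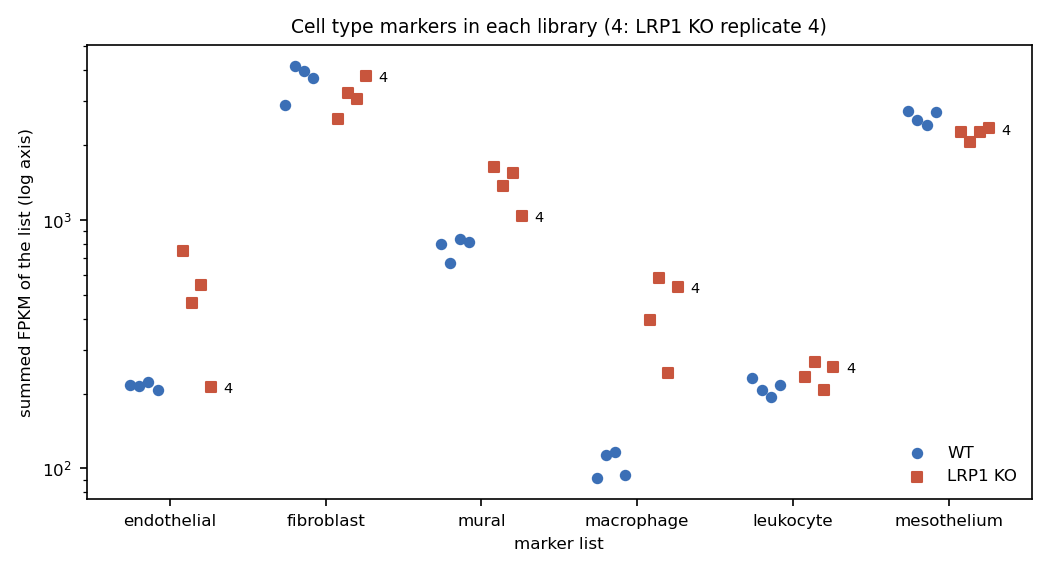
Summed FPKM of 6 cell type marker lists (log axis) in each WT (circles) and LRP1 KO (squares) library. Fibroblast and mesothelial sums exceeded the endothelial sum in every library, and LRP1 KO replicate 4, marked 4, lay with WT for endothelial markers. In fibroblast markers LRP1 KO replicate 1 alone lay outside the WT range.

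Fgfr1, whose kinase receptor serves FGF1 and FGF2 in mesenchyme and endothelium, was the most abundant of the 9 genes. It lies on the + strand at chr8:25513654-25575718 (GRCm38, GENCODE M21). Its level was 91.6, 102.2, 108.3 and 102.1 FPKM in WT replicates 1 to 4 and 66.4, 74.5, 73.1 and 88.6 FPKM in LRP1 KO replicates 1 to 4. All 4 LRP1 KO values were below the lowest WT value, with LRP1 KO replicate 4 close below WT replicate 1. The mean fell from 101.0 ± 6.96 to 75.6 ± 9.33 FPKM (SD, n = 4 each), a log2 fold change of -0.42 (SE 0.09, 95% interval -0.62 to -0.22) with an adjusted p of 0.0201 in limma over 11389 genes. Permuting the libraries (exact, two-sided) gave p = 0.0286, the lower limit for 4 against 4.

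So 1 of the 8 genes that passed the filter on low values was called, or 12.5%, beside 13.6% of all tested genes in either direction and 7.31% called lower. Likewise Fgfr1 alone did not overlap between groups, beside 19.6% of all tested genes. The number of called FGF genes was close to this background.

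Beside Fgfr1, the mean log2 levels of mural, macrophage and leukocyte markers did not overlap between the groups. That of mesothelial markers overlapped, at 6.83 to 7.16 in WT and 6.62 to 6.84 in LRP1 KO, although their sum did not. The part of these markers in the Fgfr1 difference was not tested. The fibroblast and endothelial levels, whose ranges also overlapped, were each taken as a covariate. The mean log2(FPKM + 1) of the fibroblast markers was 6.77, 7.15, 7.15 and 7.0 in WT and 6.04, 6.65, 6.40 and 7.0 in LRP1 KO, and the library with the highest Fgfr1 in LRP1 KO, replicate 4, was also the one with the highest fibroblast level. With that mean as a covariate the Fgfr1 difference was -0.21 (limma adjusted p = 0.197), and with the endothelial mean it was -0.21 (limma adjusted p = 0.407). Without LRP1 KO replicate 4 it was -0.50 (limma adjusted p = 0.00204). The call was lost without WT replicate 2 (limma adjusted p = 0.0604) or without LRP1 KO replicate 1 (0.0570), replicate 2 (0.0616) or replicate 3 (0.0615), although the difference stayed between -0.41 and -0.36. Among the 3 tested genes whose pattern over the 8 libraries was most like that of Fgfr1 were Ctdsp2 and Eml4, with root-mean-square differences of 0.039 and 0.047 on the log2(FPKM + 1) scale after each gene was centred on its mean.

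**Figure D2:**
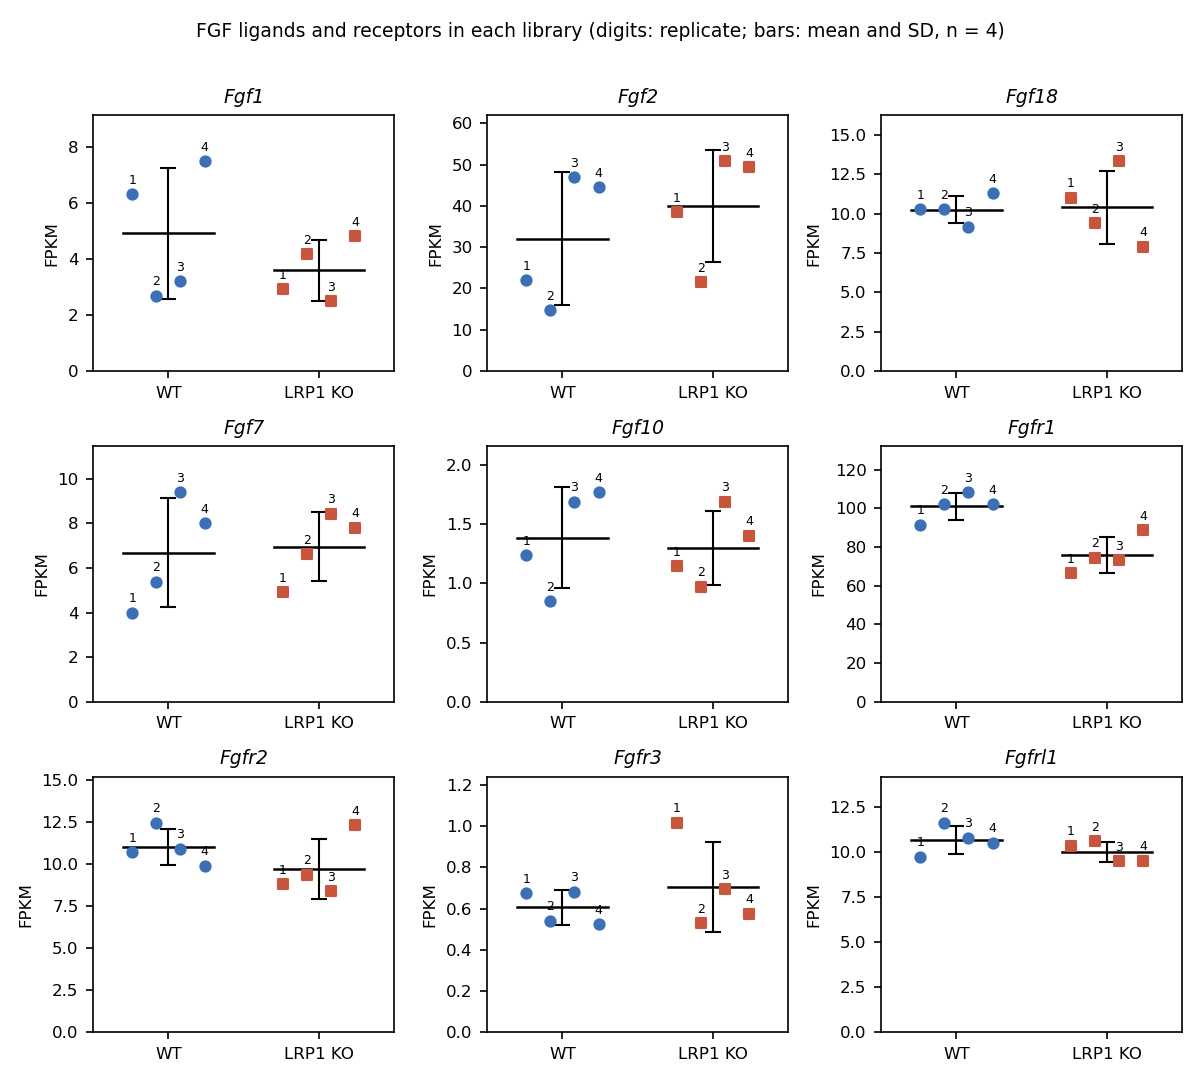
FPKM (linear axes from 0) of the 9 FGF genes in WT (circles) and LRP1 KO (squares), with digits for the replicate and bars for mean and SD (n = 4). Only Fgfr1 separates the groups, from 66.4 to 88.6 FPKM in LRP1 KO and from 91.6 to 108.3 FPKM in WT.

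Fgfr2, the receptor whose splice forms bind FGF7 and FGF10 or FGF2 and FGF18, was at 10.7, 12.4, 10.9 and 9.91 FPKM in WT, against 8.79, 9.36, 8.38 and 12.3 FPKM in LRP1 KO. Here too LRP1 KO replicate 4 stood above the other 3, which were all below the WT range. The log2 fold change was -0.17 (SE 0.11, 95% interval -0.43 to 0.09) with a limma adjusted p of 0.315, and without that library it was -0.28 with a limma adjusted p of 0.0395. With the fibroblast mean as a covariate the difference was 0.05. GENCODE gives Fgfr2 the extent chr7:130162451-133123350 on the - strand, since 1 or more of its transcripts reach into distant genes, and 314 of its exon bases are shared with Ctbp2 on the same strand.

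Fgfrl1, a receptor with FGF-binding domains but no kinase, varied little, with 9.74 to 11.6 FPKM in WT, against 9.50 to 10.6 FPKM in LRP1 KO. The ranges overlapped, with a log2 fold change of -0.09 (SE 0.07, 95% interval -0.24 to 0.07, limma adjusted p = 0.413). Its gene lies at chr5:108692382-108706924 on the + strand. Fgfr3, a receptor best known from growth plate cartilage, at chr5:33721674-33737068 on the + strand, reached 1 FPKM only in LRP1 KO replicate 1, at 1.02 FPKM. The other 7 libraries held 0.524 to 0.695 FPKM, so the gene was below the filter, and its mean log2 difference of 0.08 had p = 0.457 in the exact permutation test (two-sided). G630022F23Rik, a transcribed region on the opposite strand, shares 998 of its exon bases, or 13.9%, and whether strand was used in counting is not stated.

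In WT Fgfr1 gave 81.9 ± 1.18% (SD, n = 4) of the summed FPKM of the 4 receptors, Fgfr2 8.93% and Fgfrl1 8.66%. In LRP1 KO the shares were 78.7 ± 1.46%, 10.1% and 10.5%. The Fgfr1 share ran from 80.6 to 83.0% in WT and from 76.7 to 79.8% in LRP1 KO, and the summed receptor level fell from a mean of 123.3 to 96.0 FPKM. Fgfr1 stayed the main receptor in all 8 libraries. Among the ligands Fgf2 held 55.3 ± 10.4% of the summed FPKM in WT, against 62.9 ± 8.46% in LRP1 KO, with ranges that overlapped. The summed ligand level was 55.3 ± 19.4 FPKM in WT, against 62.3 ± 15.1 FPKM in LRP1 KO. These shares describe the values and were not tested.

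**Figure D3:**
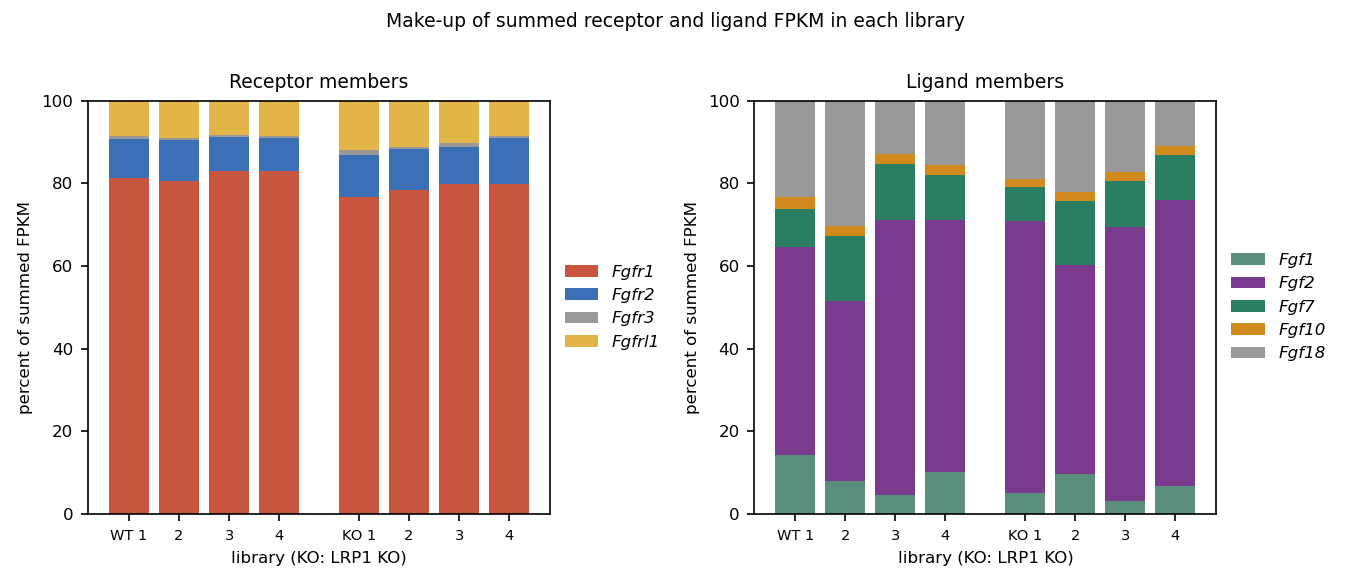
Percent of the summed FPKM of the 4 receptors (left) and of the 5 ligands (right) that each gene gave in each library. Fgfr1 makes up 76.7 to 83.0% of the receptors in every library, whereas the share of Fgf2 among ligands varies from 43.5 to 69.2%.

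In order of their WT means, the 9 genes were Fgfr1, Fgf2, Fgfr2, Fgfrl1, Fgf18, Fgf7, Fgf1, Fgf10 and Fgfr3. From Fgfr2 down to Fgf1 the ranges of neighbours overlapped, so their order is not resolved. Fgfr1 was 3.15 times as high as Fgf2 in WT and 1.89 times as high in LRP1 KO, and their ranges did not overlap in either group. In LRP1 KO the genes Fgf18, Fgfrl1, Fgfr2 and Fgf7 overlapped from neighbour to neighbour, as did Fgf10 and Fgfr3. The WT mean of Fgfr1 was above that of 93.1% of the tested genes, and that of Fgf10 above only 4.28%.

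Among the ligands, Fgf2 varied most from library to library. The gene lies at chr3:37348346-37410108 on the + strand. Its level was 22.0, 14.8, 47.0 and 44.5 FPKM in WT replicates 1 to 4 and 38.5, 21.6, 50.8 and 49.3 FPKM in LRP1 KO replicates 1 to 4. Replicates 3 and 4 were above replicates 1 and 2 in both groups. The means were 32.1 ± 16.1 and 40.0 ± 13.5 FPKM (SD, n = 4), and the log2 fold change of 0.39 (SE 0.39, 95% interval -0.48 to 1.26, limma adjusted p = 0.510) was within this spread. Over 17 alternative settings, single libraries left out included, it ran from 0.081 to 0.65.

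The gene most like Fgf2 in its pattern was Nudt6, singled out after its values were seen. Nudt6 is the antisense neighbour of Fgf2, at chr3:37404910-37420211 on the opposite strand, and 640 exon bases of Fgf2, or 9.44%, lie in its exons. Nudt6 stood at 19.4, 16.7, 32.1 and 29.4 FPKM in WT, against 30.0, 20.4, 32.4 and 28.9 FPKM in LRP1 KO, and was likewise lowest in replicate 2 of both groups, but in LRP1 KO it was lower in replicate 4 than in replicate 1, unlike Fgf2. Over the 8 libraries the root-mean-square difference of the centred log2 values was 0.30. Without strand, reads of the shared bases cannot be assigned to Fgf2 or to Nudt6.

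Fgf7 and Fgf10, 2 ligands of 1 subfamily that mesenchyme supplies to epithelium, shared with Fgf2 the higher level in replicates 3 and 4. Fgf7 (chr2:126034658-126091185, + strand) was at 3.99, 5.37, 9.39 and 8.0 FPKM in WT, against 4.91, 6.62, 8.44 and 7.80 FPKM in LRP1 KO. Its log2 fold change was 0.08 (SE 0.23, 95% interval -0.44 to 0.61, limma adjusted p = 0.831). Fgf10 (chr13:118669791-118792115, + strand) was at 1.24, 0.851, 1.69 and 1.77 FPKM in WT, against 1.14, 0.971, 1.69 and 1.40 FPKM in LRP1 KO. The 2 libraries numbered 3 and 4 were above those numbered 1 and 2 within each group for both genes. The log2 fold change of Fgf10 was -0.04 (SE 0.15, 95% interval -0.38 to 0.29, limma adjusted p = 0.864).

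This order, with replicates 3 and 4 above 1 and 2 in both groups, was seen in 495 of 11389 tested genes, or 4.35%, and the opposite order in 614, or 5.39%. The median deviation from the group mean over the 1134 tested genes with the longest transcripts was -0.11, -0.06, 0.11 and 0.06 on the log2 scale in WT replicates 1 to 4 and 0.04, -0.08, 0.07 and -0.03 in LRP1 KO replicates 1 to 4. Long transcripts were thus higher in replicates 3 and 4 of WT, and in LRP1 KO only in replicates 1 and 3. The longest transcripts of Fgf2, Fgf7 and Fgf10 have 5973, 2672 and 4114 bases, all below the shortest of those 1134 genes (6609 bases). The part of transcript length in the order was not tested. Because the labels tie no replicate number to a litter or day, the numbers were not taken as pairs.

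**Figure D4:**
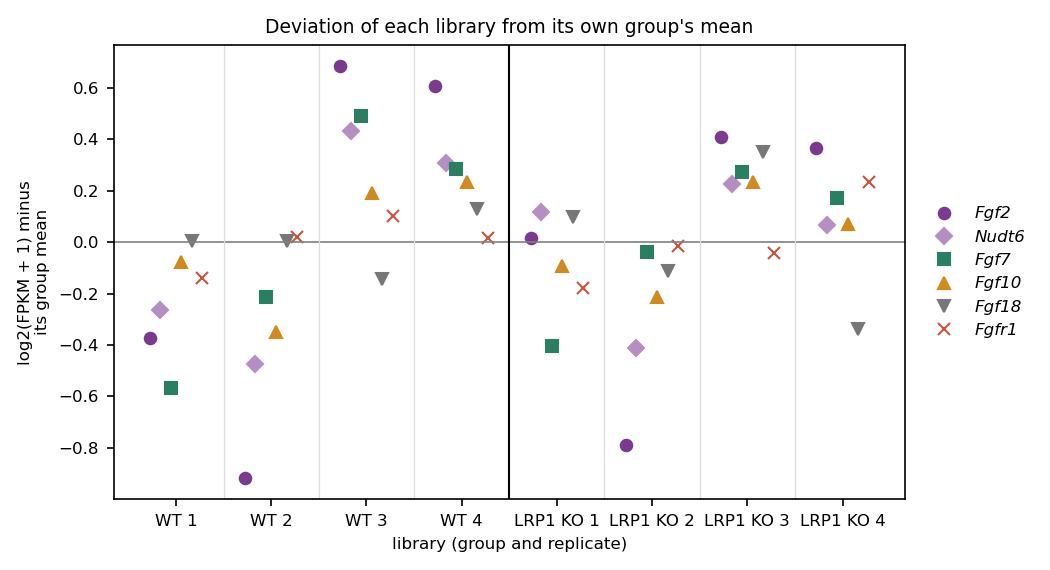
Deviation of log2(FPKM + 1) of 6 genes from the mean of their own group, for each library. Fgf2, Nudt6, Fgf7 and Fgf10 lie higher in replicates 3 and 4 than in replicate 2 of both groups, with Fgf2 lowest in WT replicate 2 (-0.92) and LRP1 KO replicate 2 (-0.79), whereas Fgf18 and Fgfr1 do not share this order.

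The promoters of Fgf7 and Fgf10, the pair of related ligands whose levels moved together, are shown with that of Fgf18, a ligand that did not move with them. Each stretch is the 250 bases before the RefSeq start (GRCm38.p6), written 5′ to 3′ on the strand of the gene, with motif matches in capitals.
Fgf7: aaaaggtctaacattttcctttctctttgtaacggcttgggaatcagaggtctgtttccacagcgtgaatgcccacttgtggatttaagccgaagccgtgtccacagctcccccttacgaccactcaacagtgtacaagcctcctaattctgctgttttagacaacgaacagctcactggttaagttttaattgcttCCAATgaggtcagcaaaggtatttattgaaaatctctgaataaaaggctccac
Fgf10: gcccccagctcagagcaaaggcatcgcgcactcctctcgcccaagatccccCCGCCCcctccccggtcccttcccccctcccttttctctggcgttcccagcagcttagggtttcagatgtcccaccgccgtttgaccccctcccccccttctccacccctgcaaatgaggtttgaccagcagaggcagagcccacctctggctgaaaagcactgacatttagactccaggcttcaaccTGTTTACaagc
Fgf18: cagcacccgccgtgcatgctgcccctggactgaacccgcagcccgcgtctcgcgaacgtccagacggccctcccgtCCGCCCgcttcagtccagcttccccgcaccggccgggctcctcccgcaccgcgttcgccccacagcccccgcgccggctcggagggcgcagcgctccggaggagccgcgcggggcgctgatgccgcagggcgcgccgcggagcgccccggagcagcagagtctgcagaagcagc
They lie at chr2:126034408-126034657 (+ strand), chr13:118714449-118714698 (+ strand) and chr11:33147401-33147650 (- strand). The motifs searched on both strands were the TATA box (TATAAA), the GC box (GGGCGG), the E-box (CACGTG), the forkhead motif (GTAAACA), the AP-1 motif (TGANTCA), the CCAAT box and the cyclic AMP element (TGACGTCA), and no match overlapped another in these 3 stretches. The Fgf7 stretch held 1 match, a CCAAT box at -53 from the start, which 33.8% of 32851 promoter stretches of this length hold. The Fgf10 stretch held a GC box at -199 and a forkhead motif at -11, both read on the other strand and present in 32.7% and 3.17% of all promoter stretches. The Fgf18 stretch held 1 GC box at -174. Fgf2, which shared the order of Fgf7 and Fgf10, held 1 GC box at -49 in its own stretch (chr3:37348403-37348652, 62.4% GC). A GC box was thus in the stretches of Fgf2, Fgf10 and Fgf18 but not of Fgf7. No motif was shared by Fgf7 and Fgf10, and their GC contents of 43.6% and 61.2% were on either side of the median of 52.4%, while Fgf18 had 77.2%. A match is a run of letters and does not show binding.

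Fgf18, which acts in lung and skeletal development, was level in WT at 10.3, 10.3, 9.18 and 11.3 FPKM. In LRP1 KO it was at 11.0, 9.41, 13.3 and 7.90 FPKM, with replicate 4 lowest and the WT values inside this range. The gene lies at chr11:33117430-33147400 on the - strand. The log2 fold change was 0.000565 (SE 0.14, 95% interval -0.30 to 0.30, limma adjusted p = 0.998), so the means were equal within 1 SE while the interval spans changes of either sign.

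Fgf1, the ligand that binds all FGF receptors, at chr18:38838673-38929472 on the - strand, was at 6.31, 2.69, 3.20 and 7.49 FPKM in WT, against 2.92, 4.18, 2.48 and 4.82 FPKM in LRP1 KO. Replicates 1 and 4 were the high ones in WT, unlike for Fgf2. The log2 fold change was -0.31 (SE 0.28, 95% interval -0.94 to 0.32, limma adjusted p = 0.470). Over the 17 alternative settings it ran from -0.50, without WT replicate 2, to 0.088, with the endothelial covariate. No stretch of 50 bases was shared between transcripts of any of the 9 genes, so reads of 1 are not expected to be counted for another.

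Of the 18 other FGF family genes in the table, 15 were under 1 FPKM in every library and 2 were tested. Fgf23, a hormone of bone that lowers phosphate, at chr6:127072902-127081408 on the + strand, was at 2.18, 3.8, 2.90 and 2.29 FPKM in WT, against 9.15, 10.3, 4.57 and 5.41 FPKM in LRP1 KO. The lowest LRP1 KO value was above the highest WT value. The mean rose from 2.79 ± 0.743 to 7.35 ± 2.78 FPKM (SD, n = 4), or 2.63 times, with a log2 fold change of 1.10 (SE 0.23, limma adjusted p = 0.0201) beside 6.27% of all tested genes called higher. The call was lost in 5 of 17 alternatives, among them the endothelial covariate (0.86, limma adjusted p = 0.365) and the fibroblast covariate (1.04, limma adjusted p = 0.209), and without WT replicate 1 (limma adjusted p = 0.0533), LRP1 KO replicate 1 (0.0599) or LRP1 KO replicate 2 (0.0573). The other tested gene, Fgf21, a hormone of liver, was at 1.09, 1.40, 1.36 and 0.987 FPKM in WT, against 0.423, 0.334, 0.422 and 1.31 FPKM in LRP1 KO, with LRP1 KO replicate 4 inside the WT range. Its log2 fold change was -0.48 (SE 0.17, limma adjusted p = 0.0899), on a log2(FPKM + 1) scale that understates changes of such low genes. Fgf8, also above 1 FPKM in 1 or more libraries but below the filter, ran from 0.383 to 1.90 FPKM in WT, against 0.0910 to 0.388 FPKM in LRP1 KO (exact permutation test, two-sided, p = 0.0571). Fgf21 and Fgf8 are outside the rule for naming genes and were added after their values were seen. Klb, the co-receptor of the hormone-like FGF21, reached 0.0370 FPKM at most, and Kl, that of FGF23, was also under 1 FPKM in all libraries. Fgfr4 and Fgf9 stayed at or below 0.133 and 0.470 FPKM.

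FGF signaling needs partners on the cell surface. Of 20 such co-receptors and binding proteins 14 were tested, 7 were higher and 2 lower in LRP1 KO, with a median log2 fold change of 0.33 beside -0.0091 over all tested genes. That is 64.3% called, beside 13.6% of all tested genes (6.27% higher and 7.31% lower). The list was chosen with earlier results of these data known, so these shares cannot show an excess. With the endothelial or the fibroblast mean as a covariate 1 call (Ncam1) was left, beside 1.43% and 1.73% of all tested genes. Ncam1, an adhesion molecule that binds FGFR1, was at 3.87, 3.36, 4.46 and 5.14 FPKM in WT, against 13.7, 10.6, 13.3 and 8.96 FPKM in LRP1 KO. It rose by 1.27 on the log2 scale (SE 0.15, limma adjusted p = 0.00159), and this call held in all 17 alternatives. The other 6 that rose were Gpc4 (0.74), Sdc3 (0.74), Fgfbp3 (0.71), Cdh2 (0.47), Sdc2 (0.42) and Sdc1 (0.25), which include heparan sulphate carriers of the glypican and syndecan families and N-cadherin, also a mural and mesenchymal gene. Cdh2, Sdc2 and Sdc1 are outside the rule for naming genes and were added after their values were seen. The Sdc3 call was lost without WT replicate 2 or LRP1 KO replicate 2 (limma adjusted p = 0.0523 and 0.0517), and that of Fgfbp3 on leaving out any library other than LRP1 KO replicate 4 (0.0557 to 0.0862). The calls of Cdh2 (without WT replicate 1 or 2 or LRP1 KO replicate 1, 2 or 3) and Sdc1 (without any library but WT replicate 1 or LRP1 KO replicate 4) were also lost, with limma adjusted p of 0.0531 to 0.0969, while those of Gpc4 and Sdc2 held without any single library. With the endothelial covariate Gpc4 was at 0.49, Sdc3 at 0.75, Fgfbp3 at 0.25, Cdh2 at 0.23, Sdc2 at 0.34 and Sdc1 at 0.25, none of them called (limma adjusted p = 0.188 to 0.517). With the fibroblast covariate they were at 0.60, 0.89, 0.32, 0.26, 0.40 and 0.27 in the same order, again with none called (limma adjusted p = 0.0609 to 0.348).

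Gpc3, a glypican of growing tissues, went the other way. It was at 240.3, 310.6, 241.2 and 182.3 FPKM in WT, against 71.6, 85.8, 78.6 and 180.1 FPKM in LRP1 KO. LRP1 KO replicate 4 was just under the lowest WT library, far from the other 3. The log2 fold change was -1.30 (SE 0.28, limma adjusted p = 0.0199). Flrt2, a membrane protein of mesenchyme whose family binds FGF receptors, fell from 65.7 ± 13.6 to 35.0 ± 9.52 FPKM (SD, n = 4), with a log2 fold change of -0.90 (SE 0.19, limma adjusted p = 0.0199) and LRP1 KO replicate 4 inside the WT range. Both calls were lost without WT replicate 2 or without LRP1 KO replicate 1, 2 or 3, with limma adjusted p of 0.0580 to 0.0646. With the endothelial covariate Gpc3 was at -0.62 and Flrt2 at -0.52 (limma adjusted p = 0.385 and 0.427), and with the fibroblast covariate they were at -0.71 and -0.49 (0.251 for both). Sdc4, the most abundant syndecan here, was at 216 FPKM in both groups (0.01, SE 0.09), and Gpc1 (0.05) and Hspg2 (-0.17), which encodes perlecan, did not pass the test.

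Of the adaptors and cascade genes 21 of 22 were tested, with 1 higher and 4 lower and a median log2 fold change of 0.09. That is 23.8% called, beside 13.6% of all tested genes, in a list also chosen with earlier results of these data known. With the endothelial or the fibroblast covariate 0 were called, beside 1.43% and 1.73% of all tested genes. The kinase gene Map2k1 rose by 0.27 (limma adjusted p = 0.0162). Mapk3, which encodes ERK1, fell from 119.0 ± 2.73 to 97.8 ± 3.37 FPKM (SD, n = 4), a log2 fold change of -0.28 with a limma adjusted p of 0.00847. Plcg1 (-0.34) and Shc1 (-0.34) were also lower. The calls of Mapk3 and Plcg1 held without any single library but not with the covariates. With the endothelial covariate Mapk3 was at -0.23, Plcg1 at -0.33, Map2k1 at 0.26 and Shc1 at -0.12 (limma adjusted p = 0.182, 0.174, 0.237 and 0.650). Over all 17 alternatives Mapk3 ran from -0.30 to -0.23, Plcg1 from -0.38 to -0.29, Map2k1 from 0.25 to 0.30 and Shc1 from -0.43 to -0.12. The calls of Map2k1 (without WT replicate 2 or LRP1 KO replicate 1 or 3) and Shc1 (without any library but LRP1 KO replicate 4) were lost, with limma adjusted p of 0.0516 to 0.107. Frs2, the docking protein of the receptors, was at 9.38 ± 1.47 and 9.10 ± 0.946 FPKM (SD, n = 4), with a log2 fold change of -0.03 (SE 0.11).

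Feedback inhibitors and targets report on the output of the receptors. Of 20 genes 18 were tested, with a median log2 fold change of -0.08, and 4 were called, 0 with either covariate. Ccnd1, a cyclin of the G1 phase, was at 28.8, 19.0, 31.1 and 37.6 FPKM in WT, against 78.8, 70.7, 91.7 and 38.7 FPKM in LRP1 KO, with LRP1 KO replicate 4 close to the highest WT library. It rose by 1.21 on the log2 scale (SE 0.27, limma adjusted p = 0.0235). Myc rose by 0.54 (SE 0.10, limma adjusted p = 0.0121). Both also answer to many other growth signals. Il17rd, which encodes an inhibitor of FGF signaling also named SEF, was lower at 1.98 ± 0.247 against 2.75 ± 0.154 FPKM (SD, n = 4, limma adjusted p = 0.0332), and Phlda1 fell by 0.36 (limma adjusted p = 0.0398). The Myc call held without any single library. With the endothelial covariate Ccnd1 was at 0.65, Myc at 0.30, Il17rd at -0.32 and Phlda1 at -0.26, none of them called (limma adjusted p = 0.222 to 0.560). The Ccnd1 call was lost without WT replicate 1 or 2 or LRP1 KO replicate 1, 2 or 3 (limma adjusted p = 0.0543 to 0.0704), that of Il17rd without any library but LRP1 KO replicate 4 (0.0539 to 0.0914), and that of Phlda1 without any but WT replicate 4 or LRP1 KO replicate 4 (0.0559 to 0.115).

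The genes most often used as a readout of FGF receptors did not pass the test. Spry1 differed by 0.43 (SE 0.14, limma adjusted p = 0.0662), Spry2 by -0.17 (0.0965), Spry4 by -0.38 (0.109) and Etv5 by -0.29 (0.0838), so the Sprouty genes did not share a sign. Spry1 alone of these genes was higher. All of them were under an unadjusted limma p of 0.05, as were 33.7% of all tested genes. Spry2 did not overlap between groups, at 36.9 to 42.6 FPKM in WT and 33.8 to 36.7 FPKM in LRP1 KO. The same held for 19.6% of all tested genes. Without LRP1 KO replicate 4 Etv5 differed by -0.37 (limma adjusted p = 0.0207). Dusp6, the phosphatase that acts on ERK, was at 47.4 ± 8.68 FPKM in WT, against 43.7 ± 2.84 FPKM in LRP1 KO (SD, n = 4), with a log2 fold change of -0.10 (SE 0.12, limma adjusted p = 0.595). Etv4 was close to it at -0.13 (limma adjusted p = 0.593).

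The number of calls fell when a marker level was a covariate, over all genes as in these lists. With the endothelial mean as a covariate 0 members, 0 cascade genes, 0 targets and 1 co-receptor or binding protein were called, beside 163 of all genes, and with the fibroblast mean the numbers were 0, 0, 0 and 1, beside 197. The median SE over all genes rose from 0.088 to 0.117 and 0.111 in these fits. At an unadjusted limma p under 0.05 the fit with no covariate gave 1 member (Fgfr1), 9 cascade genes, 10 targets and 10 co-receptors or binding proteins, beside 33.7% of all tested genes. On the same basis the endothelial fit gave 1 (Fgfr1), 4, 3 and 8, beside 10.6%, and the fibroblast fit gave 1 (Fgfr1), 3, 5 and 10, beside 13.8%. Without LRP1 KO replicate 4, 2 members, 8 cascade genes, 7 targets and 9 co-receptors or binding proteins were called, beside 2959 of all genes.

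**Figure D5:**
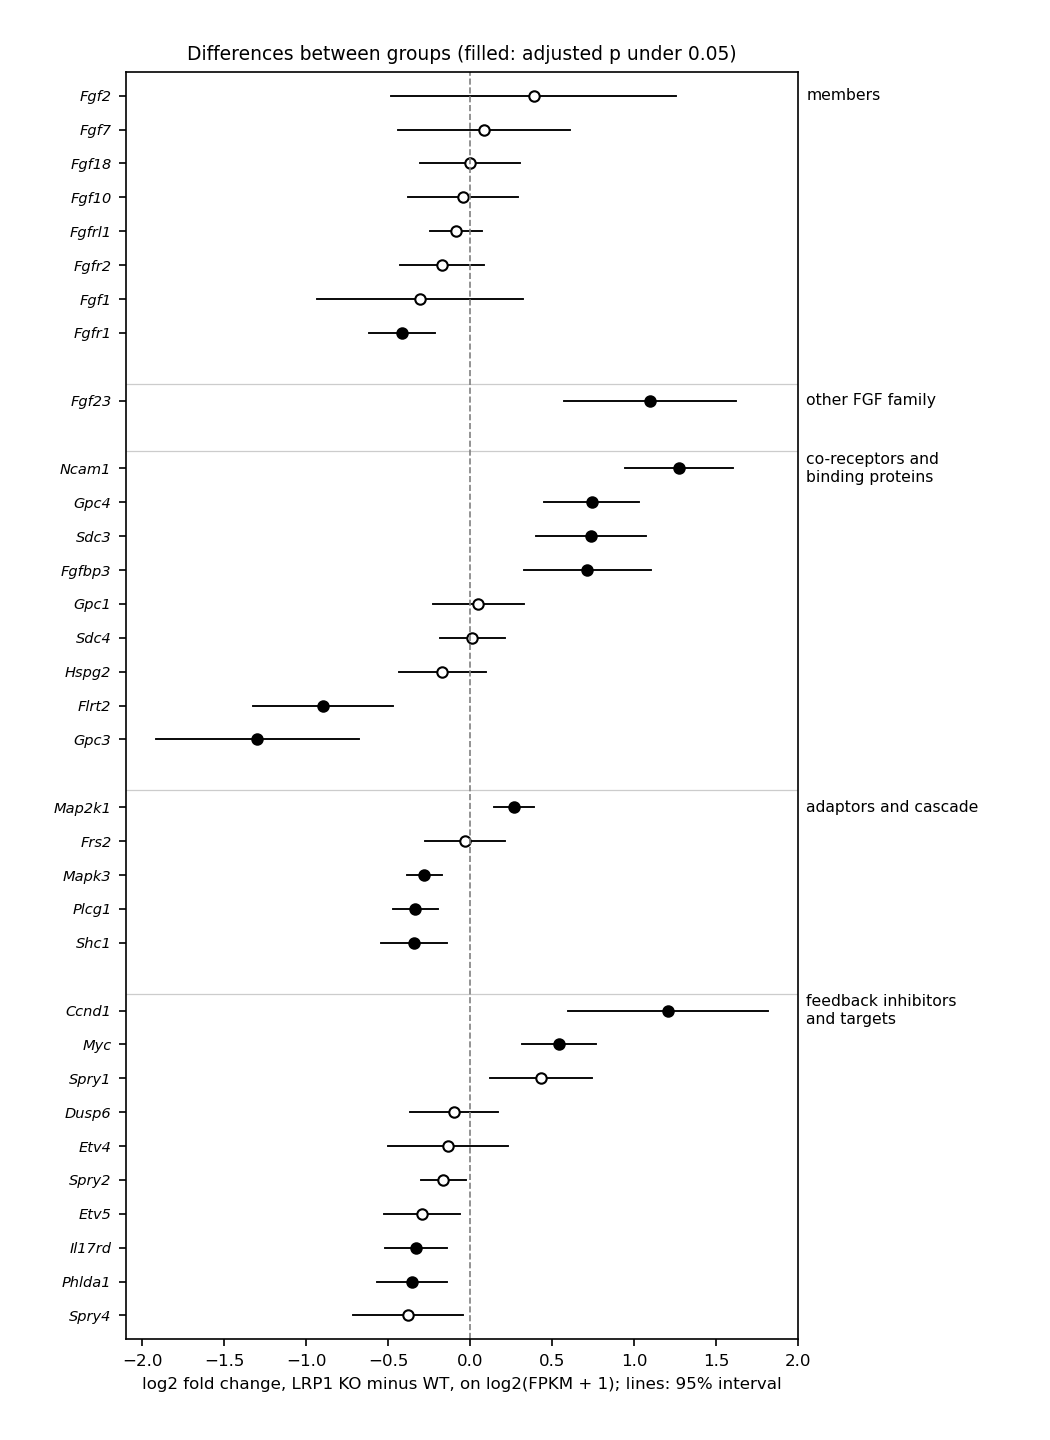
Log2 fold changes (LRP1 KO minus WT) with 95% intervals for the 8 tested members and for named genes of the 4 pathway lists, filled where the limma adjusted p is under 0.05. The interval of Fgfr1 lies below 0 (-0.62 to -0.22), those of the other 7 members include 0, and Ncam1, Ccnd1 and Fgf23 lie highest while Gpc3 lies lowest.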

How the data were processed

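Total RNA of cells selected with PECAM-1 beads was sequenced from Illumina TruSeq libraries, 4 WT and 4 LRP1 KO at postnatal day 14, grouped by their titles. The authors deposited 1 table of 22520 genes. Its values were taken to be FPKM, quantile normalized across libraries by the authors before deposit, since columns have equal maxima and nearly equal sums, so total RNA and depth cannot be compared. The submitters' processing notes name TopHat2 and Cufflinks and mm10, without versions, while the study's methods describe other tools and counts. How strand was treated is not given in the sources used here.

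Expression was analysed as log2(FPKM + 1), a scale on which changes of low genes are understated. Genes with at least 1 FPKM in at least 4 libraries (11389) were fitted with limma 3.58.1 (R 4.3.3), with group as the only term and the variance following the mean level. P-values were adjusted by Benjamini-Hochberg over all tested genes, and a gene was called at an adjusted p under 0.05. Single genes were also compared by exact two-sided permutation over all 70 splits. On simulated data the test called 88.2% of genes changed by 0.75 and 98.4% of those changed by 1.5 on the log2 scale. Those genes were drawn at random, each with its own spread, so the rates do not hold for genes of wide spread. The SE was 0.39 for Fgf2, 0.28 for Fgf1 and 0.23 for Fgf7, beside a median of 0.088 over all tested genes. Positions are from GENCODE M21 (GRCm38), matched by identifier for 21740 genes, and promoters from RefSeq (GRCm38.p6), which held 7 of the 9 members. Replicates correlated at 0.987 to 0.994 within WT and 0.980 to 0.994 within LRP1 KO, and no pair was a duplicate.

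The members and the lists were chosen with earlier results of these data known. Named are Lrp1, the members, up to 6 called genes per list by size of change, Fgfr4, Fgf9, Frs2, Spry1, Spry2, Spry4, Dusp6, Etv4, Etv5, Sdc4, Gpc1, Hspg2 and Klb, and the 3 genes most like a called member. Of the genes this rule covers, 2 are not reported here. Other genes were named after their values were seen. Alternatives were 2 pseudocounts, 2 filters, rescaling, no variance trend, a replicate block, leaving out each library, and marker means as covariates.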

Additional observations from a re-analysis of the deposited data

Results flagged for a closer look

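Gpc3 in LRP1 KO replicate 4 was at 180.1 FPKM, apart from the other 3 LRP1 KO libraries at 71.6 to 85.8 FPKM. Fgfr4 in WT replicate 4 was at 0.0528 FPKM, below the other 3 WT libraries at 0.122 to 0.133 FPKM. In both cases the gap of 1 library to its nearest neighbour exceeded the 95% limit of Dixon's test. Chance alone gives such a gap in about 1 of 20 groups, and 2 of the 76 groups examined showed one.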

How the results depend on the processing

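Over the alternatives the 9 members gave 146 values, of which 122 kept their sign and side of the threshold, 6 lost and 1 gained a call, and 17 changed sign. Fgfr1 stayed lower in all 17 of its alternatives, from -0.50 to -0.21, and was called in 11. The 30 other named genes gave 505 values, of which 391 kept sign and side, 103 lost and 2 gained a call, and 9 changed sign. The number of called members was 1 in the other settings but 0 with the endothelial or fibroblast covariate and 0 to 2 on leaving out single libraries, with 2 without LRP1 KO replicate 4. Called targets, 4 of 18 in the comparison as reported, were 1 with no filter, 2 with the replicate block, 0 with either covariate and 1 to 7 without single libraries. Called co-receptors and binding proteins, 9 as reported, were 1 with either covariate and 3 to 9 without single libraries, and called cascade genes, 5 as reported, were 0 with either covariate and 2 to 8 without single libraries. Alternatives for these last 2 lists were chosen after seeing the data. Over all genes 1547 calls became 1013 with the replicate block, 1163 with no filter, 163 and 197 with the endothelial and fibroblast covariates, and 433 to 2959 without single libraries. The cause of these changes was not tested.

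Signs changed for some members and genes that were not called, Fgf1 and Fgfr2 (-0.31 and -0.17 as reported) included. With the endothelial covariate Fgf1 was at 0.088, Fgf10 at 0.014, Fgf18 at -0.27 and Fgfr2 at 0.072, and with the fibroblast covariate Fgf18 was at -0.24 and Fgfr2 at 0.045. Fgf18 was at -0.0012 with a pseudocount of 0.1 and at -0.00034 with 0.5. Without single libraries Fgf7 ran from -0.11 to 0.25, Fgf10 from -0.16 to 0.034, Fgf18 from -0.12 to 0.11, Fgfr3 from -0.0051 to 0.13, Sdc4 from -0.059 to 0.085, Gpc1 from -0.034 to 0.13, Frs2 from -0.10 to 0.052 and Etv4 from -0.26 to 0.0042.

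The replicate numbers did not pair the samples, since same-numbered libraries of the 2 groups deviated together with correlations of 0.158, 0.141, 0.340 and -0.312. With the replicate block the Fgfr1 difference was -0.42 (limma adjusted p = 0.0274) and that of Fgf2 0.39 with an SE of 0.12 in place of 0.39 (limma adjusted p = 0.0878), with Fgf2 higher in LRP1 KO in all 4 same-numbered pairs. The block ended the calls of Gpc3 (0.0503), Ccnd1 (0.0503), Sdc1 (0.0617), Il17rd (0.0778) and Phlda1 (0.0808) and added that of Spry1 (0.0331), by limma adjusted p, and changed no other call of a named gene. Quantile normalization hides depth, so no counting limit can be given for the low genes Fgf10 and Fgfr3.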
